A study of Mus musculus with 20 samples.

Results

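RXR binding in the first hours of fat cell differentiation was set against PPARgamma binding on day 2. The 2 deposited peak lists held 2076 RXR peaks of 4 hours and 3168 PPARgamma peaks of day 2. Peaks that overlapped by at least 1 bp were merged into 1 site, which gave 4781 sites: 460 with peaks of both factors (shared sites), 1613 with RXR alone (RXR-only sites) and 2708 with PPARgamma alone (PPARgamma-only sites). They are a small part of the 77867 regions that hold a peak in any of the 19 lists of the series, and of the 48367 regions bound in any of its 11 transcription factor lists.

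The cells were 3T3-L1, a mouse preadipocyte line, with no genetic change named in the labels. Differentiation was started 2 days after confluence (day 0) with fetal bovine serum and 3 agents: the glucocorticoid dexamethasone, insulin, and the phosphodiesterase inhibitor 3-isobutyl-1-methylxanthine. Every library after day 0 shares this treatment. On day 2 the medium was changed to serum with insulin, and later to serum alone. The RXR library was made from cells at 4 hours of this treatment and the PPARgamma libraries from cells on day 2 and day 6. The other lists scored were DNase I hypersensitive sites (DHS, open chromatin) on day 0, at 2 and 4 hours and on day 1, 2 and 6, C/EBPbeta on day 0, at 2 and 4 hours and on day 2, C/EBPdelta on day 0 and at 4 hours, GR and Stat5a at 4 hours, and RNA polymerase II (RNA Pol II) on day 0 and at 4 hours. Factors were mapped by chromatin immunoprecipitation with sequencing. Each group held 1 library with no replicate, so no difference was tested against replicate spread. The files carry no read counts, so depth is unknown. Intervals are exact (Clopper-Pearson) 95% for shares and Newcombe 95% for differences, and both cover counting over sites in these libraries only. Since the 2 lists differ in factor, antibody and time together, a site in 1 list and not in the other cannot be assigned to any one of these, and in bulk cells a missing peak cannot be told apart from binding in too few cells to be called.

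RXR (retinoid X receptor) is the obligate partner of PPARgamma: the pair binds direct repeats of a nuclear receptor motif as a heterodimer. RXR also pairs with other nuclear receptors and can bind as a homodimer. PPARgamma is the central regulator of the adipocyte state and is induced during differentiation. C/EBPbeta and C/EBPdelta are the early adipogenic factors that act upstream of it. GR is the receptor of dexamethasone, and Stat5a is a signal-dependent factor that promotes adipogenesis.

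The first question was how often early RXR sites lay where PPARgamma was found on day 2. Of the 2076 RXR peaks, 463 (22.3%, interval 20.5 to 24.2) overlapped a PPARgamma day 2 peak, and 1613 did not. Of the 3168 PPARgamma peaks, 460 (14.5%, 13.3 to 15.8) overlapped an RXR peak. Among all 48367 regions bound in any factor list, 6.51% held PPARgamma of day 2 and 4.26% held RXR. RXR was thus listed at 4 hours at a minority of the later PPARgamma sites, and most early RXR sites had no PPARgamma peak on day 2. With the lists set to 2076 peaks each by width, the shares were 16.4% and 16.2%.

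RXR peaks met PPARgamma peaks more often than did peaks of the other factors of 4 hours. PPARgamma of day 2 was at 14.0% (13.0 to 15.1) of 4080 GR peaks, 7.11% (6.52 to 7.74) of 6977 Stat5a peaks, 6.91% (6.55 to 7.29) of 18327 C/EBPdelta peaks and 5.58% (5.33 to 5.85) of 29957 C/EBPbeta peaks. These lists are longer than that of RXR. When each was cut to its 2076 widest peaks, the shares were 16.7% (15.1 to 18.3) for GR, 15.5% (13.9 to 17.1) for C/EBPdelta, 15.0% (13.5 to 16.6) for C/EBPbeta and 9.01% (7.81 to 10.3) for Stat5a, all with upper bounds under the 20.5% lower bound of RXR. With the PPARgamma list also cut to 2076 peaks, RXR stood at 16.4% (14.8 to 18.04), GR at 13.05% (11.6 to 14.6), C/EBPbeta at 11.85%, C/EBPdelta at 11.8% and Stat5a at 6.60%. Seen from PPARgamma, the factors with the longest lists came first: C/EBPbeta of 4 hours was at 52.1% of its day 2 peaks, C/EBPdelta at 39.4%, GR at 18.1%, Stat5a at 15.6% and RXR at 14.5%.

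The peaks at shared sites lay close to each other. The middles of the 463 overlapping peak pairs were a median of 64 bp apart (quartiles 31.75 and 123.5 bp), 309 of them (66.7%) were within 100 bp, and 326 RXR peaks (70.4%) lay wholly inside the PPARgamma peak. The median overlap was 502 bp, and 3 shared sites held 2 RXR peaks under 1 PPARgamma peak. Near the limit of the rule there were few sites: the smallest overlap was 20 bp, only 3 pairs overlapped by under 100 bp, and only 11 RXR-only sites had a PPARgamma peak within 500 bp, the nearest at 12 bp. Within 100000 bp, 42.0% of RXR-only sites had a PPARgamma day 2 peak (median distance 139 kb), and 33.1% of PPARgamma-only sites had an RXR peak (median 238 kb). The PPARgamma list searched is the longer one, so these shares cannot be compared with each other. Distances were not scored for all factor-bound regions.

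Peak width differed little for RXR and more for PPARgamma. RXR peaks had a median width of 529.5 bp at shared and 497 bp at RXR-only sites, and PPARgamma peaks 778 bp at shared and 713 bp at PPARgamma-only sites. PPARgamma was present at 30.3% (26.4 to 34.5) of the RXR sites in the top width quartile (580 to 1373 bp) and at 17.6% to 20.6% of those in the lower quartiles. RXR was present at 20.8% (18.1 to 23.8) of the PPARgamma sites in the top quartile of PPARgamma width and at 10.5% (8.43 to 12.8) of those in the lowest. Sites of the 3 classes were also of different width (793, 497 and 713 bp), and a wider site meets other peaks more readily. The share of each class in each other list was therefore also scored over only the central 200 bp of every site. None of these 51 shares changed by more than 2.39 percentage points. This scoring kept the peaks of the other lists at full width. With every peak of all lists set to 200 bp, which also redrew the classes, some shares fell further. The 4 hours DHS list held 57.7% of RXR-only sites in that setting, against 69.7% as deposited. The day 2 DHS list held 59.0% of PPARgamma-only sites, against 70.5%.

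Open chromatin up to 4 hours was more frequent in both classes with RXR than at PPARgamma-only sites. The 4 hours DHS list held 391 of 460 shared sites (85.0%, 81.4 to 88.1), 69.7% (67.4 to 71.9) of RXR-only sites and 31.7% (30.0 to 33.5) of PPARgamma-only sites, against 33.5% of all factor-bound regions. The 2 hours list held 58.0% (53.4 to 62.6), 46.7% (44.3 to 49.2) and 11.6% (10.4 to 12.8), against 12.3%. Before induction the shares were low in all classes. The day 0 list held 24.6% (20.7 to 28.8) of shared, 15.0% (13.3 to 16.8) of RXR-only and 8.86% (7.82 to 9.996) of PPARgamma-only sites, against 8.64%. PPARgamma-only sites thus lay near the background share of open chromatin up to 4 hours, whereas both classes with RXR lay above it at each of these times.

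After the first day the order of the classes changed. On day 1 the DHS list held 91.1% (88.1 to 93.5) of shared, 74.7% (72.5 to 76.8) of RXR-only and 46.6% (44.7 to 48.5) of PPARgamma-only sites, against 34.8% of factor-bound regions. On day 2 it held 94.6% (92.1 to 96.5) of shared, 60.2% (57.8 to 62.6) of RXR-only and 70.5% (68.7 to 72.2) of PPARgamma-only sites, against 28.5%. PPARgamma-only sites now exceeded RXR-only sites (RXR-only minus PPARgamma-only -10.3 percentage points, interval -13.2 to -7.36). On day 6 the shares were 38.9% (34.4 to 43.5), 11.2% (9.66 to 12.8) and 26.4% (24.7 to 28.1), against 9.73%. RXR-only sites had then come close to the background share, while shared sites exceeded them by 27.8 points (23.1 to 32.5).

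**Figure D1:**
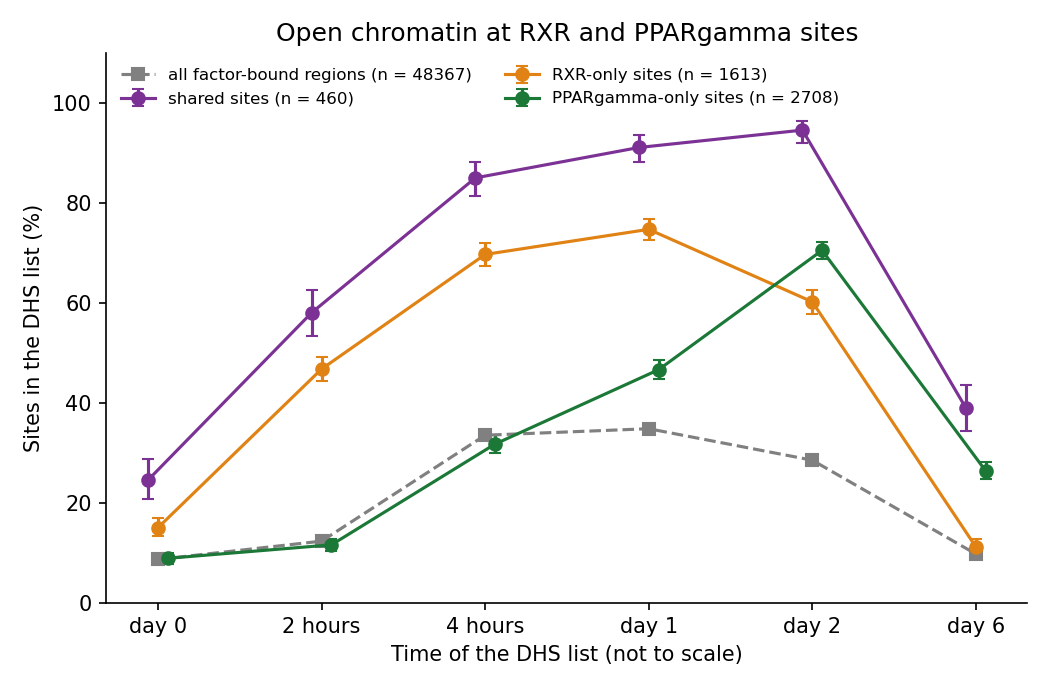
Percent of shared, RXR-only and PPARgamma-only sites (points, vertical bars are exact 95% intervals over sites) found in the DHS list of each time, with all factor-bound regions as grey squares; the time axis is not to scale. Shared sites are highest at every time, and the PPARgamma-only line rises from 31.7% at 4 hours to 70.5% on day 2, above the 60.2% of RXR-only sites.

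The DHS lists ranged from 9055 peaks at 2 hours to 35389 on day 1, so the shares of 1 class at different times come from lists of different length. With every DHS list cut to its 9055 widest peaks and the classes unchanged, a setting chosen after seeing the data, shared sites were listed in 43.3% (38.7 to 47.9) of cases at 4 hours, 51.96% (47.3 to 56.6) on day 1, 71.5% (67.2 to 75.6) on day 2 and 29.6% (25.4 to 34.0) on day 6. For RXR-only sites these shares were 32.1% (29.8 to 34.5), 32.05% (29.8 to 34.4), 30.2% (28.0 to 32.6) and 7.75% (6.49 to 9.16). For PPARgamma-only sites they were 12.3% (11.1 to 13.6), 18.4% (16.95 to 19.9), 36.8% (35.0 to 38.6) and 19.7% (18.2 to 21.3). The intervals of RXR-only sites at 4 hours and day 2 overlapped in this setting, in contrast to the deposited lists, while both classes with PPARgamma were higher on day 2 than at 4 hours in either.

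Following the sites open at 4 hours separates the 2 classes with RXR. The shares in this paragraph were not counted over all factor-bound regions, so they compare the classes with each other only. The classes were themselves set by PPARgamma of day 2, so the day 2 shares describe sites occupied together. Of the 391 shared sites in the 4 hours DHS list, 97.4% (95.3 to 98.8) were also in that of day 2 and 44.2% (39.3 to 49.3) in that of day 6. Of the 1124 RXR-only sites in it, 70.9% (68.2 to 73.5) were listed on day 2 and 15.7% (13.7 to 18.01) on day 6. The 859 PPARgamma-only sites open at 4 hours were nearer to the shared ones, with 94.6% (92.9 to 96.1) on day 2 and 51.3% (47.9 to 54.7) on day 6. Of sites outside the 4 hours list, 78.3% (66.7 to 87.3) of 69 shared, 35.6% (31.3 to 40.0) of 489 RXR-only and 59.3% (57.0 to 61.5) of 1849 PPARgamma-only sites were in the day 2 list.

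Each site was then given a DHS history, the set of times at which it was listed. Histories, first times listed and absence from all lists were not counted over all factor-bound regions. The shares in this paragraph therefore compare the classes with each other only, and not with a background. The most frequent history of shared sites was open at 2 hours, 4 hours, day 1 and day 2 and absent on day 0 and day 6 (96 sites, 20.9%), followed by open at all 6 times (82 sites, 17.8%) and open at 4 hours, day 1 and day 2 (74 sites, 16.1%). The first of these also led among RXR-only sites (319 sites, 19.8%), but there it was followed by open at no time (234 sites, 14.5%) and by open at 4 hours, day 1 and day 2 (184 sites, 11.4%). Among PPARgamma-only sites the leading history was open at no time (696 sites, 25.7%), then open on day 2 alone (558 sites, 20.6%) and open on day 1 and day 2 (279 sites, 10.3%). Only 13 shared sites (2.83%) were in no DHS list. These shares depend on list length: with the DHS lists alone cut to equal length, the history leading in the deposited lists covered 11.7% (8.94 to 15.0) of shared, 6.14% (5.02 to 7.42) of RXR-only and 55.0% (53.1 to 56.9) of PPARgamma-only sites. In the deposited lists, PPARgamma of day 6 was at 44 of the 96 shared sites with the leading history (45.8%), at 69 of the 82 open at all 6 times (84.1%) and at 52 of 60 open from 2 hours to day 6 (86.7%). Counting all lists except PPARgamma of day 6, 375 PPARgamma-only sites (13.8%) were in none of the 16 others, against 29 RXR-only sites (1.80%) and 1 shared site. By first time listed, 35.2% of shared and 32.8% of RXR-only sites entered at 2 hours against 5.28% of PPARgamma-only sites, and 25.1% of PPARgamma-only sites entered on day 2 against 2.83% and 2.85% of the classes with RXR.

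**Figure D2:**
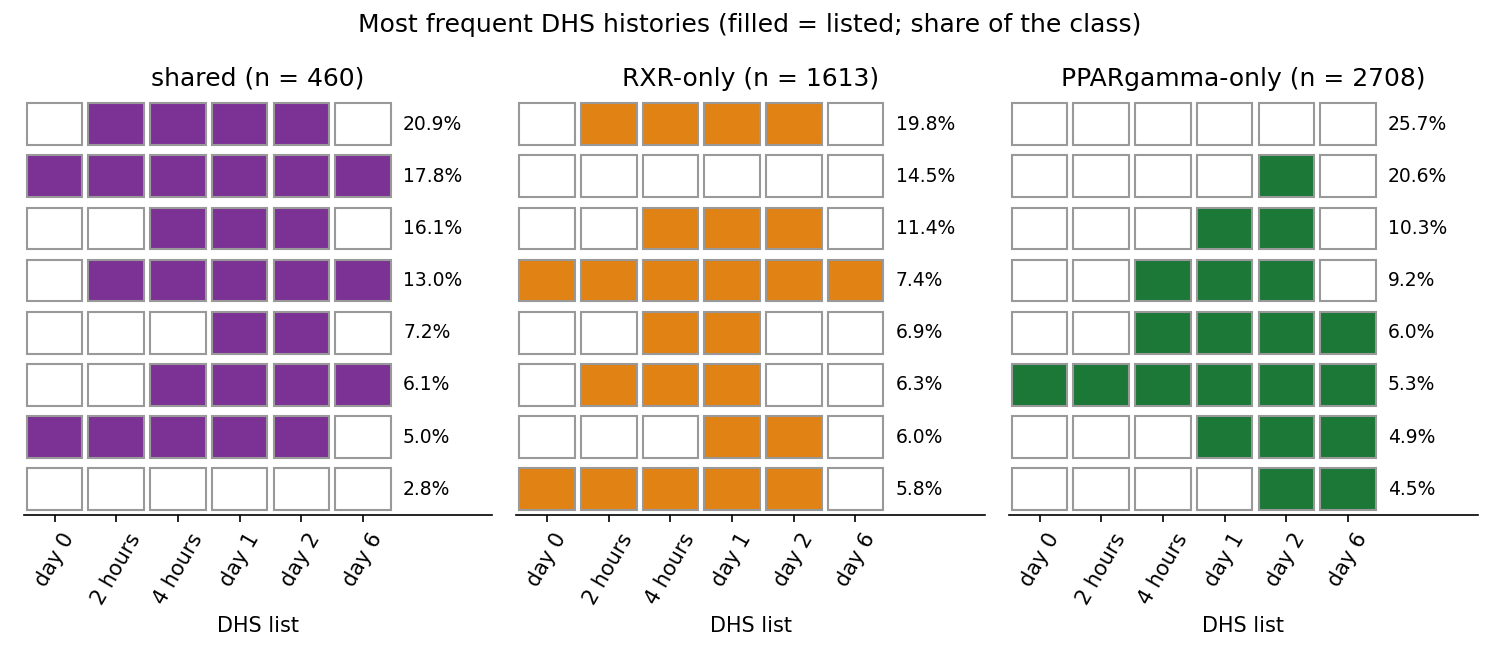
The 8 most frequent DHS histories of each class, 1 row per history and 1 box per DHS list in order of time, filled where the list holds the site; the number is the percent of the class. The leading row is open from 2 hours to day 2 for shared (20.9%) and RXR-only sites (19.8%) and open at no time for PPARgamma-only sites (25.7%). With DHS lists of equal length these shares were 11.7%, 6.14% and 55.0%. Histories were not counted over all factor-bound regions.

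C/EBPbeta, with the longest factor list at 4 hours (29957 peaks), lay at the large majority of early RXR sites. Its 4 hours list held 97.0% (94.9 to 98.3) of shared and 91.8% (90.3 to 93.1) of RXR-only sites but 44.4% (42.5 to 46.3) of PPARgamma-only sites, against 61.4% of factor-bound regions, a background that the C/EBPbeta lists themselves help to define. On day 2 the shares were 94.6% (92.1 to 96.5), 74.8% (72.6 to 76.9) and 64.2% (62.4 to 66.0), against 43.9%. From 4 hours to day 2 the PPARgamma-only class thus went from below the background to above it. Shared sites exceeded RXR-only sites on day 2 by 19.7 points (16.5 to 22.5).

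C/EBPbeta of 4 hours was listed again on day 2 most often at shared sites. The classes were themselves set by PPARgamma of day 2, a list of the same time, so this split describes sites occupied together. Of shared sites with C/EBPbeta at 4 hours, 97.3% (95.3 to 98.6) had it on day 2, against 80.7% (78.6 to 82.7) of such RXR-only sites and 92.6% (91.0 to 94.0) of such PPARgamma-only sites. It was listed at all 4 times (day 0, 2 hours, 4 hours and day 2) at 78.0% of shared, 56.5% of RXR-only and 22.8% of PPARgamma-only sites. Before induction, on day 0, C/EBPbeta was at 79.8% (75.8 to 83.4) of shared, 64.8% (62.5 to 67.2) of RXR-only and 29.9% (28.2 to 31.7) of PPARgamma-only sites, against 42.1%, and at 2 hours at 93.0%, 83.2% and 32.2%, against 40.3%. A binding pattern of C/EBPbeta on day 2 alone was found at 551 PPARgamma-only sites (20.3%), 9 RXR-only sites and 1 shared site. C/EBPbeta kept from 4 hours to day 2, at all 4 times and on day 2 alone were not counted over all factor-bound regions, so these patterns have no background share.

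C/EBPdelta of 4 hours was at 93.7% (91.1 to 95.7) of shared and 91.1% (89.6 to 92.4) of RXR-only sites, a difference of 2.62 points (-0.285 to 5.02), and at 30.1% (28.4 to 31.9) of PPARgamma-only sites, against 37.4%. With its list cut to its 2076 widest peaks and the 2 chosen lists to equal length, these shares were 46.6% (41.2 to 52.1), 36.4% (34.1 to 38.7) and 5.12% (4.13 to 6.26), so that the shared sites then stood above the RXR-only sites. On day 0, when its list held only 2581 peaks, it was at 34.1% (29.8 to 38.7), 25.98% (23.9 to 28.2) and 4.17% (3.45 to 4.996), against 5.31%. Both classes with RXR were above the background before induction, and PPARgamma-only sites were below it. The C/EBPdelta lists also help to define this background, so a share below it is partly built in.

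GR was more frequent at shared than at RXR-only sites, and for Stat5a the interval of that difference included 0. GR was at 332 of 460 shared sites (72.2%, 67.8 to 76.2) and 57.0% (54.5 to 59.4) of RXR-only sites, 15.2 points less (10.3 to 19.8), and at 8.86% (7.82 to 9.996) of PPARgamma-only sites, where the background was 8.41%. Stat5a was at 60.7% (56.0 to 65.1) of shared and 59.9% (57.4 to 62.3) of RXR-only sites, a difference of 0.764 points (-4.35 to 5.75), and at 7.90% (6.91 to 8.98) of PPARgamma-only sites, against 14.3%. With the factor lists of 4 hours and PPARgamma of day 2 cut to their 2076 widest peaks, GR was at 52.5% of shared, 37.1% of RXR-only and 5.29% of PPARgamma-only sites, and Stat5a at 28.5%, 27.5% and 2.30%. In the deposited lists, all 4 other factors of 4 hours were present at 51.3% of shared, 43.5% of RXR-only and 3.66% of PPARgamma-only sites, and none of them at 1.52%, 4.09% and 53.3%. These combinations were not counted over all factor-bound regions. The GR and Stat5a lists also help to define the background given for single factors, so a share below it is partly built in.

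**Figure D3:**
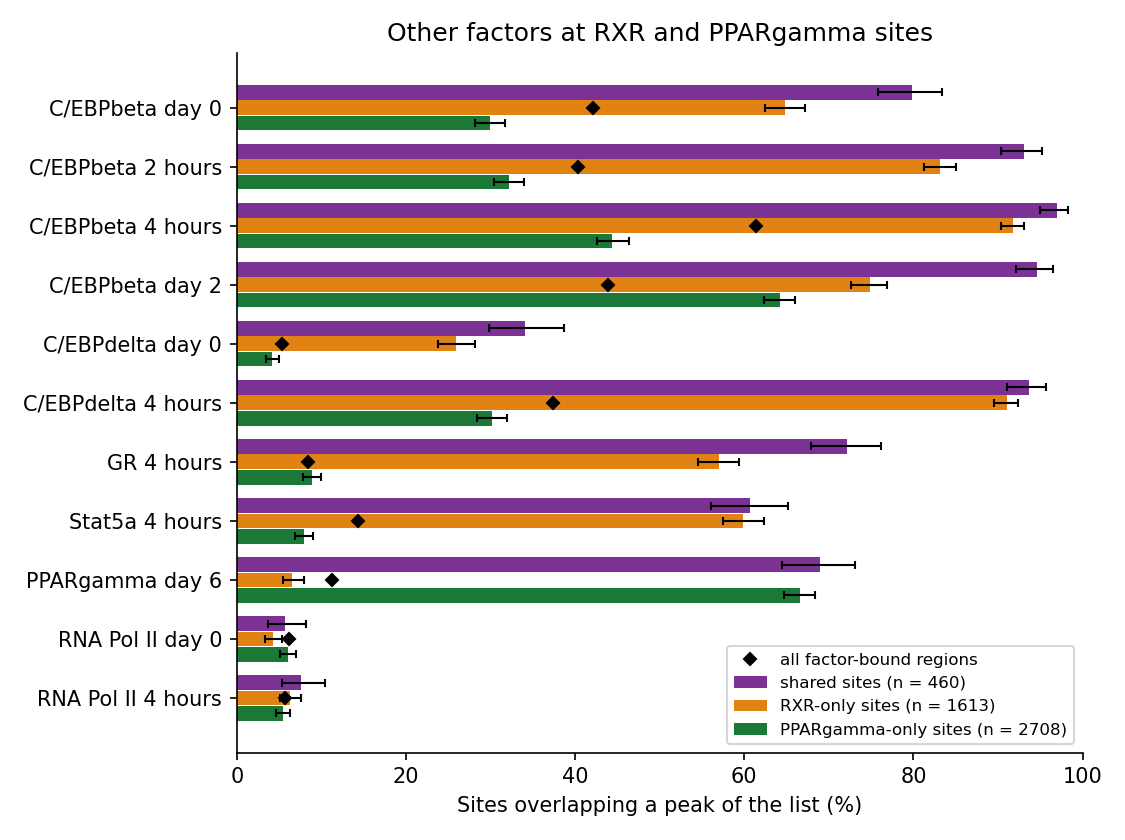
Percent of shared, RXR-only and PPARgamma-only sites (bars, with exact 95% intervals over sites) that overlap a peak of each other factor list, with all factor-bound regions as black diamonds. Bars of both classes with RXR are long for the C/EBPs, GR and Stat5a, those of PPARgamma-only sites are long for C/EBPbeta of day 2 (64.2%) and PPARgamma of day 6 (66.5%), and all RNA Pol II bars are under 8%.

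RNA Pol II peaks, which lie mostly at transcribed genes and their starts, were rare in all 3 classes. The day 0 list met 5.65% (3.73 to 8.17) of shared, 4.28% (3.34 to 5.38) of RXR-only and 6.02% (5.15 to 6.98) of PPARgamma-only sites, against 6.14%. The 4 hours list met 7.61% (5.36 to 10.4), 6.26% (5.13 to 7.56) and 5.43% (4.61 to 6.35), against 5.76%. All 6 shares were within 2 points of the background. On day 0 RXR-only sites were lower than PPARgamma-only sites (RXR-only minus PPARgamma-only -1.74 points, -3.05 to -0.360), and the intervals of the other 5 differences between classes included 0. PPARgamma-only sites are wider, and over the central 200 bp the day 0 shares of RXR-only and PPARgamma-only sites were closer, 3.78% and 4.87%. No interval was computed for that difference.

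Within the RXR sites, the share with PPARgamma on day 2 varied with the company RXR kept. PPARgamma was at 26.5% (24.1 to 29.1) of 1251 RXR sites with GR and at 15.6% (13.2 to 18.2) of 822 without it. With Stat5a present or absent, the shares were 22.4% (20.1 to 24.8) and 21.9% (19.1 to 24.8). Sites with GR and without Stat5a stood at 31.2% (26.04 to 36.8, n = 301), those with both at 25.1% (22.3 to 27.9, n = 950), those with Stat5a alone at 13.9% (10.2 to 18.4, n = 295), and those with neither at 16.5% (13.4 to 19.96, n = 527). C/EBPbeta of 4 hours went with 23.2% (21.3 to 25.1, n = 1926) against 9.52% (5.31 to 15.5, n = 147) without it, and C/EBPdelta of 4 hours with 22.7% (20.8 to 24.6, n = 1900) against 16.8% (11.5 to 23.2, n = 173). C/EBPbeta on day 0 went with 25.97% (23.7 to 28.3) against 14.1% (11.5 to 16.98) without it.

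The state of the site on day 2 separated RXR sites more than any factor of 4 hours that was scored. PPARgamma was at 32.3% (29.7 to 35.1) of 1178 RXR sites listed as open at both 4 hours and day 2, at 23.7% (18.3 to 29.7) of 228 open on day 2 and not at 4 hours, at 2.97% (1.43 to 5.39) of 337 open at 4 hours and not on day 2, and at 4.55% (2.57 to 7.39) of 330 open at neither time. It was at 26.5% (24.4 to 28.7) of 1642 RXR sites with C/EBPbeta on day 2 and at 5.80% (3.79 to 8.44) of 431 without. Among sites open on day 2, those with GR at 4 hours had PPARgamma in 33.5% (30.5 to 36.6) of 958 cases and those without GR in 25.4% (21.5 to 29.7) of 448. Among sites not open on day 2 the shares were 3.75% (1.89 to 6.62) of 293 with GR and 3.74% (2.06 to 6.20) of 374 without. Among sites open on day 2 with C/EBPbeta of day 2 they were 34.7% (31.6 to 37.9) of 904 with GR and 27.8% (23.3 to 32.6) of 371 without. Among sites open on day 2 without C/EBPbeta of day 2 they were 13.0% (5.37 to 24.9) of 54 and 14.3% (7.35 to 24.1) of 77. The intervals of these smaller groups are too wide to show whether PPARgamma was more or less frequent there with GR listed. DHS, C/EBPbeta and PPARgamma of day 2 were taken at the same time, so these shares describe sites occupied together and not an order of events.

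RXR was then compared with its absence at regions that held the same number of other factors. Only at 4 other factors are the same factors compared, since with fewer the regions were matched on number and not on which factors were present. Of 938 regions with C/EBPbeta, C/EBPdelta, GR and Stat5a as well as RXR, 25.4% (22.6 to 28.3) held PPARgamma on day 2. Of 1005 regions with those 4 factors and no RXR, 9.85% (8.08 to 11.9) did, a difference of 15.5 points (12.2 to 18.9). With 3 other factors the shares were 24.0% and 6.74%, with 2 they were 17.01% and 4.98%, and with 1 they were 18.8% (11.2 to 28.8, n = 85) and 2.45% (2.23 to 2.69, n = 18512). RXR with none of the 4, at 74 regions, went with PPARgamma in 10.8% (4.78 to 20.2).

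These regions also differed in openness. Of the regions with all 4 other factors, the day 2 DHS list held 78.4% of those with RXR and 56.9% of those without, and their median widths were 945.5 and 878 bp. Among regions in that DHS list, PPARgamma was at 31.3% (28.0 to 34.8) of 735 with RXR and 15.9% (13.0 to 19.2) of 572 without, and the difference was between 15.4 and 19.6 points for 1, 2, 3 and 4 other factors, with every interval above 0. In 200 bp around the middle of all regions with 4 other factors the shares were 24.8% and 9.75%. Peak height is not in the files, so the part of binding strength in this difference was not tested.

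**Figure D4:**
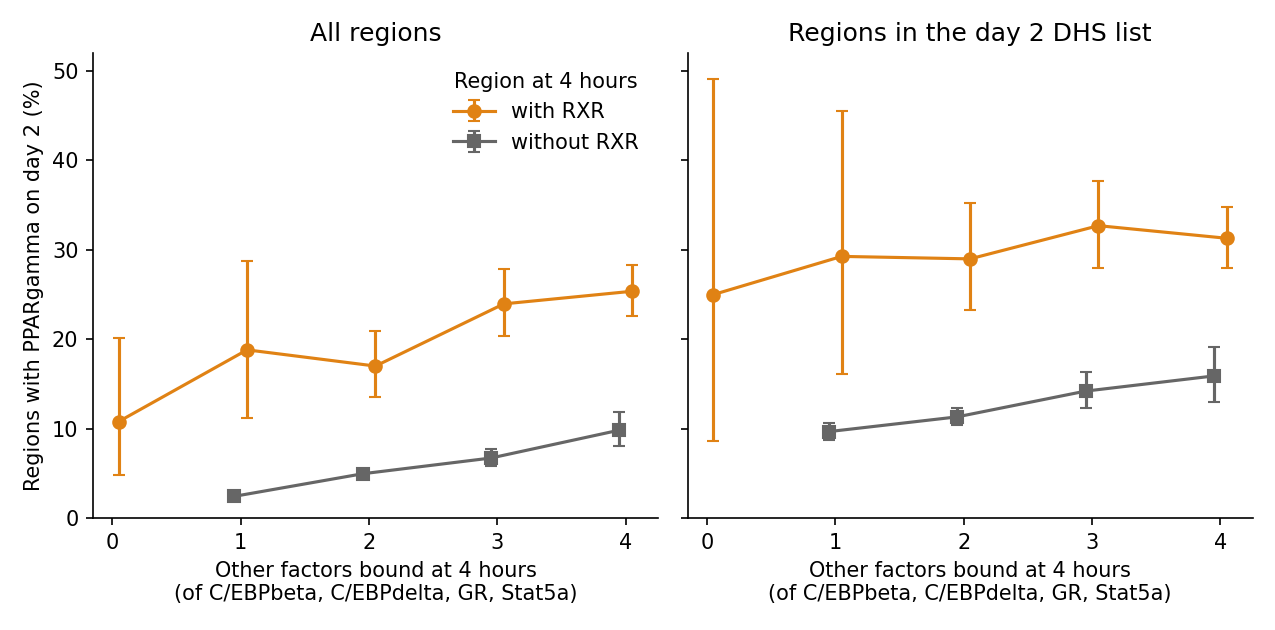
Percent of regions bound at 4 hours that hold PPARgamma on day 2, against the number of other factors (C/EBPbeta, C/EBPdelta, GR, Stat5a) at the region, for regions with RXR (orange circles) and without it (grey squares), with exact 95% intervals over regions; left, all regions, right, those in the day 2 DHS list. At 4 other factors the shares are 25.4% and 9.85% on the left and 31.3% and 15.9% on the right.

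Persistence of PPARgamma to day 6, when the cells are labelled mature adipocytes, was close in sites with and without early RXR. PPARgamma was listed again on day 6 at 317 of 460 shared sites (68.9%, 64.5 to 73.1) and at 1802 of 2708 PPARgamma-only sites (66.5%, 64.7 to 68.3), against 11.3% of factor-bound regions. The difference was 2.37 points with an interval of -2.34 to 6.81. It was 7.13 points (2.13 to 11.9) with every peak set to 200 bp and -0.899 (-9.02 to 6.74) with the wider 50% of each list, so neither its sign nor its distance from 0 was stable. Where a site was in both the DHS and the C/EBPbeta list of 4 hours, the shares were 68.4% (63.5 to 73.0, n = 383) and 68.3% (64.5 to 71.8, n = 649). In the lowest width quartile of PPARgamma peaks they were 42.2% (31.4 to 53.5) and 48.4% (44.6 to 52.1), and in the top quartile 88.5% (82.6 to 92.9) and 83.1% (79.9 to 85.9), each with overlapping intervals.

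Persistence varied more with peak width and with openness on day 6. Over all PPARgamma day 2 sites, the share kept was 47.7% (44.2 to 51.3), 61.2%, 74.4% and 84.2% (81.5 to 86.7) from the lowest to the top width quartile. A wider peak meets other peaks more readily, and the quartiles were not rescored at a fixed width. Sites in the day 6 DHS list were kept in 87.7% (82.0 to 92.1) of 179 shared and 88.2% (85.6 to 90.5) of 714 PPARgamma-only cases, and sites outside it in 56.9% (50.9 to 62.8) and 58.8% (56.6 to 60.9). DHS and PPARgamma of day 6 were taken at the same time, so this split describes sites occupied together. By the day 2 DHS list, 70.3% of 435 shared and 73.1% of 1909 PPARgamma-only sites in it were kept. Outside it, 44.0% of 25 and 50.8% of 799 were kept. With GR at 4 hours, the shares were 67.5% (62.1 to 72.5, n = 332) at shared and 61.2% (54.8 to 67.4, n = 240) at PPARgamma-only sites. Without GR they were 72.7% (64.1 to 80.2, n = 128) and 67.1% (65.2 to 68.9, n = 2468), higher in both classes, with overlapping intervals.

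By day 6, PPARgamma had appeared at few of the RXR sites that lacked it on day 2. It was listed at 106 of 1613 RXR-only sites (6.57%, 5.41 to 7.89), against 3.22% of 33594 regions of any 4 hours factor without PPARgamma on day 2, and 3.04% (2.86 to 3.24) of 31995 such regions without RXR. The difference from the 33594 regions was 3.35 points (2.23 to 4.68), and with the wider 50% of each list it was 1.38 points (0.245 to 2.90), at 3.99% of RXR-only sites. With all 4 other factors present the shares were 7.86% (5.97 to 10.1) with RXR and 4.86% (3.55 to 6.47) without, a difference of 3.00 points (0.614 to 5.54). With 3 other factors the difference was 3.48 points (1.24 to 6.46), and with 1 or 2 its interval included 0. Of the whole RXR list, 422 peaks (20.3%, 18.6 to 22.1) overlapped PPARgamma of day 6, and 421 of 5493 PPARgamma day 6 peaks (7.66%, 6.97 to 8.40) overlapped RXR.

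The 106 RXR-only sites with PPARgamma on day 6 were more often open and more often bound by C/EBPbeta than the other RXR-only sites. The day 2 DHS list held 86.8% of them, against 58.3% of the 1507 RXR-only sites without PPARgamma on day 6 and 96.5% of the 317 shared sites kept on day 6. For the day 6 DHS list these shares were 43.4%, 8.89% and 49.5%, and for C/EBPbeta of day 2 they were 93.4%, 73.5% and 95.3%. C/EBPbeta of day 0 was at 84.0%, 63.5% and 83.0%. GR was at 65.1%, 56.4% and 70.7%.

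Single sites are given below by position on build mm9, counted from 1. For each class and day 6 outcome they are the 3 with the widest RXR peak, or the widest PPARgamma peak where RXR was absent. The files pair no gene with a peak. Among shared sites kept on day 6, the widest RXR peak of the list (1373 bp) lay on chromosome 6 at 115370730 to 115372422. It held both C/EBPs at every time profiled, GR and Stat5a, and was in every DHS list except that of day 0. The next were on chromosome 4 at 5421070 to 5422286, open at 4 hours, day 1 and day 2, and on chromosome X at 97882406 to 97883860, open from 2 hours to day 6 with an RNA Pol II peak at 4 hours. C/EBPbeta of all 4 times, GR and Stat5a were at both.

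Shared sites without PPARgamma on day 6 began with chromosome 1, positions 164821775 to 164822860. Next came positions 51043001 to 51044165 of chromosome 6 and positions 110671145 to 110672137 of chromosome 13. Each held C/EBPbeta at 2 hours, 4 hours and day 2, C/EBPdelta of 4 hours, GR and Stat5a, and each was open from 2 hours to day 2. Only the chromosome 1 site was also open on day 6. None of the 3 was in the day 0 DHS list, and the chromosome 6 site lacked C/EBPbeta on day 0.

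RXR-only sites that gained PPARgamma by day 6 began with chromosome 15, positions 62702534 to 62703386 and 101138867 to 101139704, and positions 148163875 to 148164710 of chromosome 1. All 3 held C/EBPbeta at its 4 times, C/EBPdelta at its 2 times, GR and Stat5a. Those that stayed without PPARgamma began with chromosome 5, positions 16375001 to 16376207 and 15186570 to 15187756, and positions 89967304 to 89968429 of chromosome 13. The site at 15186570 was open at all 6 times and held C/EBPdelta and Stat5a. It differed from the 5 other named RXR-only sites in having no C/EBPbeta at any time, no GR, and RNA Pol II both on day 0 and at 4 hours.

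PPARgamma-only sites kept on day 6 began with chromosome 5, positions 4112978 to 4115227, the widest PPARgamma day 2 peak (2250 bp), open on day 2 alone. Next came positions 13530428 to 13532531 of chromosome 13 and positions 42097686 to 42099663 of chromosome 8. The chromosome 8 site held no factor besides PPARgamma at any time and was open on day 2 and day 6. Those without it on day 6 began with chromosome 17, positions 39983540 to 39985074, followed by positions 61449682 to 61451206 of chromosome 15 and positions 44174091 to 44175557 of chromosome 16. The DHS peaks over the chromosome 17 site, 5962 to 6129 bp wide, were the widest in all 6 lists, where median widths were 484 to 616 bp. What sets this region apart was not tested.

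The number of shared sites varied between chromosomes, and this variation was not tested. Chromosome 6, chosen after its values were seen, held 67 of them (14.6%), against 8.62% of RXR-only and 10.2% of PPARgamma-only sites and 8.33% of all factor-bound regions. It also held 11.1% of PPARgamma day 6 peaks. PPARgamma was at 32.5% (26.2 to 39.4) of the 206 RXR sites on chromosome 6 and at 21.0% (19.2 to 23.0) of the 1867 RXR sites elsewhere. Chromosome 19 had 31.5% of 92 RXR sites shared, and chromosome 3 had 14.0% of 100, both also picked after their values were seen. Chromosome 18 was not scanned for dense stretches. On the other chromosomes, the largest number of shared sites in 1 Mb was 7, in 2 overlapping windows on chromosome 16. The first of them held its shared sites at 24933443 to 25787343, with 7 shared sites, 8 RXR-only and 10 PPARgamma-only sites. All 7 shared sites there held GR, and 4 kept PPARgamma on day 6. Stretches on chromosome 1 at 185721673 to 186360783 and chromosome 6 at 114807822 to 115492088 held 5 shared sites each, and in each 4 of the 5 had PPARgamma on day 6. Apart from these and windows that overlap the chromosome 16 stretch, no window scanned held 5 or more. The stretch on chromosome 6 contains the widest RXR peak of the list.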

How the data were processed

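The series holds 20 samples of 3T3-L1 cells, of which 19 have a peak list (6 DHS and 13 ChIP-seq) and the input control was not analysed here. The deposited lists hold peak positions only (chromosome, start, end, in bp), without scores, on mm9 per the submitters' processing notes. The peak caller, threshold and read depth are not given in the sources used here. A site was scored as present in a list when it overlapped a peak by 1 bp or more. The background is every region with a peak in any of the 11 factor lists, merged, so it includes all peaks of each factor list scored against it. The classes, lists, comparisons and the rule for named sites (the 3 widest peaks in each of 6 groups by class and day 6 PPARgamma, and the 3 stretches of 1 Mb with most shared sites, chromosome 18 not scanned for either) were chosen with earlier results of these data known. The overlap functions were tested on simulated data. Calculations used Python 3.11.15, NumPy 2.4.6, pandas 2.3.3, SciPy 1.17.1 and Matplotlib 3.10.9. No mm9 genome sequence or annotation was used here, so motifs and genes at sites were not analysed. Alternatives were other overlap criteria, fixed or wider peaks, equal list lengths, equal DHS lists alone (added after seeing the data) and 200 bp windows.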

Additional observations from a re-analysis of the deposited data

How the results depend on the processing

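Of 441 alternative values, 254 stayed within the interval or tolerance of the reported value (1.5 times for counts), 186 moved beyond it and 1 changed sign. The sign changed for the kept share of PPARgamma on day 6, shared minus PPARgamma-only, which was -0.899 points with the wider 50% of each list and 7.13 with every peak set to 200 bp, and the reported interval includes 0. The cause was not tested for moves under 200 bp peaks. With 200 bp peaks, PPARgamma was at 20.2% of RXR peaks and RXR at 13.3% of PPARgamma peaks, PPARgamma at 4.66% (C/EBPbeta), 5.79% (C/EBPdelta), 12.3% (GR) and 5.95% (Stat5a) of the other peaks of 4 hours, and the leading DHS history covered 15.3% of RXR-only and 33.3% of PPARgamma-only sites. Peaks up to 500 bp apart gave 6.12% for C/EBPbeta, 7.42% for C/EBPdelta and 23.5% for the PPARgamma-only history. The wider 50% of each list, which holds fewer peaks by construction, gave 15.4% of RXR and 10.1% of PPARgamma peaks overlapping, 160 shared, 878 RXR-only and 1424 PPARgamma-only sites, 4.84%, 5.62%, 11.1% and 4.67% for C/EBPbeta, C/EBPdelta, GR and Stat5a, and 16.3% and 30.2% for the RXR-only and PPARgamma-only histories. Its differences were 41.3 points for DHS 4 hours (shared minus PPARgamma-only), 38.6 for DHS day 2 and 22.0 for DHS day 6 (shared minus RXR-only), and 1.38 for PPARgamma day 6 (RXR-only minus regions of any 4 hours factor without PPARgamma on day 2). Equal list lengths gave 16.4% and 16.2% of RXR and PPARgamma peaks, 1739 PPARgamma-only sites, 11.9% for C/EBPbeta, 11.8% for C/EBPdelta, 31.9 points for DHS 4 hours, 44.7 for DHS day 2, and 10.4%, 6.80% and 46.8% for the 3 histories. The DHS lists alone cut to equal length, added after seeing the data, gave 31.0 points for DHS 4 hours, 41.3 for DHS day 2, 21.8 for DHS day 6, and 11.7%, 6.14% and 55.0% for the histories. The differences in C/EBPbeta of 4 hours (RXR-only minus PPARgamma-only), C/EBPbeta of day 2 and GR (both shared minus RXR-only) stayed within their intervals under every alternative run. For scoring sites with equal list lengths, however, the C/EBPbeta lists were cut only to 19703 peaks. The other factor lists of 4 hours were cut to 2076, so the C/EBPbeta differences were not tried at that length. Without read counts, sites near the calling threshold cannot be told from absent ones. No paired analysis was possible because each group has 1 library.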
